A study of Mus musculus with 5 samples.

Results

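Scx, Mkx, Tnmd, Angptl7, Meox1 and Fndc1 are 6 of the 29818 genes counted in these libraries, and they were chosen by name as genes associated with tendon and ligament cells. The choice was made with earlier results of these data known. None of the 6 was used to sort the cells. All 6 had unique molecular identifiers (UMIs, each marking 1 captured transcript) in 5 of 5 pups. Among the cell classes named from markers, mean levels of Scx, Mkx, Tnmd, Angptl7 and Fndc1 were highest in perichondrial cells that carried tendon matrix transcripts, whereas the mean level of Meox1 was highest in endothelial cells.

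The cells came from the proximal tibia and distal femur of 5 littermate mouse pups whose strain is labelled C57BL/6J, although the Col2a1-Cre line was made on a B6SJLF1 background and crossed to C57BL/6J, and each pup gave 1 BD Rhapsody HT Express library. Pups 1 and 2 are labelled wild type (WT). Pups 3, 4 and 5 are labelled mutant and are described as carrying a conditional knock-in of Trpv4 p.R594H, an activating change in a calcium channel, on 1 allele, recombined by Col2a1-Cre. That Cre acts in cells that express Col2a1 and their progeny, so cells without a Col2a1 history are not expected to carry the recombined allele, and a UMI count does not show which allele a cell carries. Which control genotype pups 1 and 2 had (with or without Cre or the unrecombined allele) is not given in the labels. The age is postnatal day 5 in the sample labels and day 3 in the design text of the series. The tissue is labelled growth plate cartilage and the cells chondrocytes, and the joints were dissected free of tendon and ligament before digestion.

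Tendon cells lay down parallel collagen fibres that join muscle to bone, and ligament cells join bone to bone. Scleraxis (Scx) is the transcription factor that marks their progenitors, Mohawk (Mkx) is a homeodomain factor needed for normal tendon collagen, and tenomodulin (Tnmd) is a membrane glycoprotein of mature tendon cells that lies downstream of Scx. Where tendon meets cartilage, progenitors that express both Scx and the cartilage factor Sox9 build the attachment.

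Of 84382 cells, 82516 had 200 to 6000 genes and at most 10% mitochondrial UMIs. Median depth per cell was 9261 and 8521 UMIs with the WT label and 6657, 6000 and 7016 UMIs with the mutant label, so depth differed with the label. Xist, the transcript of the inactive X chromosome, had a UMI in 89.8% and 88.4% of cells of pups 3 and 4 and in 0.119%, 0.109% and 0.174% of cells of pups 1, 2 and 5, whereas the Y-linked Ddx3y had one in 67.6%, 70.1% and 66.3% of cells of pups 1, 2 and 5. The label and this difference are therefore not independent, which bears on Tnmd because it is an X-linked gene. Pairs of pups shared 3 to 7 cell labels. Levels below are CPM, that is, counts scaled to a fixed total of the UMIs summed over the cells of a class in a pup, and the mean is given with the SD of 5 pups. Shares of cells are given after cells were thinned to 3000 UMIs, and cells with fewer UMIs were left out. These were 0 and 21 cells of pups 1 and 2 (WT) and 691, 1162 and 429 cells of pups 3 to 5 (mutant). In cartilage, Trpv4 was at 219 and 152 CPM with the WT label and at 148, 214 and 211 CPM with the mutant label.

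Cells were placed in classes by marker thresholds. Cartilage (45661 cells) had at least 30000 CPM of Col2a1, the fibrillar collagen of cartilage, with at least 3 further cartilage genes. Perichondrial cells (25018) were high in Col1a1 and Col3a1, fibrillar collagens of fibrous tissue, and low in Col2a1, and had Postn or Prrx1. They were divided into 14718 tendon-matrix perichondrial cells with at least 2 of Kera, Thbs4 and Fmod, all matrix proteins of tendon, 1329 Prg4-high perichondrial cells, and 8971 other perichondrial cells. Osteoblasts (329 cells, 13 to 182 per pup), blood cells (1806), endothelial cells (450), pericytes (775) and Schwann cells (73) were named from their own marker lists. Tendon-matrix perichondrial cells made up 11.3% to 20.6% of the cells of a pup. Of their 3 markers, Fmod was as high in cartilage (mean 3469 CPM) as in perichondrial cells (3339 CPM), so it is not particular to tendon here. A further 1165 cells with high Col1a1 but Col3a1 under the limit have no class and no place in the orders given below, although their mean levels of Mkx (113 CPM), Tnmd (2092 CPM) and Angptl7 (47.6 CPM) were at or above those of tendon-matrix perichondrial cells, with overlap between pups.

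The stretch of genome just upstream of each gene start, up to 250 bases, is shown for the 2 of the 6 members with the largest difference between perichondrial cells and cartilage, Tnmd and Angptl7, and for Cnmd (chondromodulin), the cartilage paralog of Tnmd. RefSeq (GRCm38.p6) was the source, and 3 of the 6 members matched an entry. Capitals mark CANNTG, the E-box that basic helix-loop-helix factors such as Scx can bind, which is the same on both strands.
Tnmd, chrX:133850758-133850979, plus strand: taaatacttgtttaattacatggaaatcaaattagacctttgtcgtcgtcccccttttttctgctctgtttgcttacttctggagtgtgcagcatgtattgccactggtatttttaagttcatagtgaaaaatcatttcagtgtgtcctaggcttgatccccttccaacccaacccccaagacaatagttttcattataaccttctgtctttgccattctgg
Angptl7, chr4:148500463-148500712, minus strand: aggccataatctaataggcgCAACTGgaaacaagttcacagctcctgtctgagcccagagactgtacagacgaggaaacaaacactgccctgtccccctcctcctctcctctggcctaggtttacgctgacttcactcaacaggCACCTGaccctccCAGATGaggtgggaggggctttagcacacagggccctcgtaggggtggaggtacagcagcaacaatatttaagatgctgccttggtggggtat
Cnmd, chr14:79662184-79662433, minus strand: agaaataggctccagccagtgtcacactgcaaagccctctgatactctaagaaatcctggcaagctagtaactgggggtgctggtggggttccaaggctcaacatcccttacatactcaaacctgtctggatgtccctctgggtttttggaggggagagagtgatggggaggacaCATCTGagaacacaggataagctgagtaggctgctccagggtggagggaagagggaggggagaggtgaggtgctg

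Within the stretches searched, 222 bases for Tnmd and 250 for the others, Angptl7 had 3 matches, beginning 230, 106 and 93 bases before the start. Cnmd had 1, beginning 75 bases before it, and Tnmd and Fndc1 had 0. CANNTG occurred in 66.2% of the 32851 RefSeq promoter windows of 250 bases, and the match of Cnmd, in either orientation, in 14.4%. A match is a run of letters and no evidence of binding, and windows without a match were not searched further.

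In GENCODE M21 (GRCm38) coordinates, Scx lies on chromosome 15 (76457452 to 76459458, plus strand) inside the span of Bop1 on the minus strand, Angptl7 on chromosome 4 (148495183 to 148500460, minus strand) inside the span of Mtor on the plus strand, and Meox1 on chromosome 11 (101877510 to 101894374, minus strand) across the antisense gene Gm11551. Mkx lies on chromosome 18 (minus strand), Tnmd on chromosome X (133850980 to 133865577, plus strand) and Fndc1 on chromosome 17 (7738569 to 7827302, minus strand). All 6 are protein coding. The sources used here do not state whether the counting used the strand, so reads of the overlapping partners cannot be told apart from those of Scx, Angptl7 and Meox1 if it did not. Mean levels in tendon-matrix perichondrial cells, cartilage and blood cells were 19.3, 16.7 and 27.9 CPM for Bop1 and 14.2, 10.7 and 18.1 CPM for Mtor. Bop1 was higher in perichondrial cells than in cartilage by 0.19 ± 0.06 on the log2 scale and in tendon-matrix than in other perichondrial cells by 0.42 ± 0.10, both in the direction of Scx. Mtor was higher in perichondrial cells than in cartilage by 0.50 ± 0.07, in the direction of Angptl7, and its difference within perichondrial cells was 0.14 ± 0.09 and was not called. Mkx is overlapped on its own strand by AC148004.2, which counting by strand would not separate from it. Gm11551 and AC148004.2 were not analysed here.

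**Figure D1:**
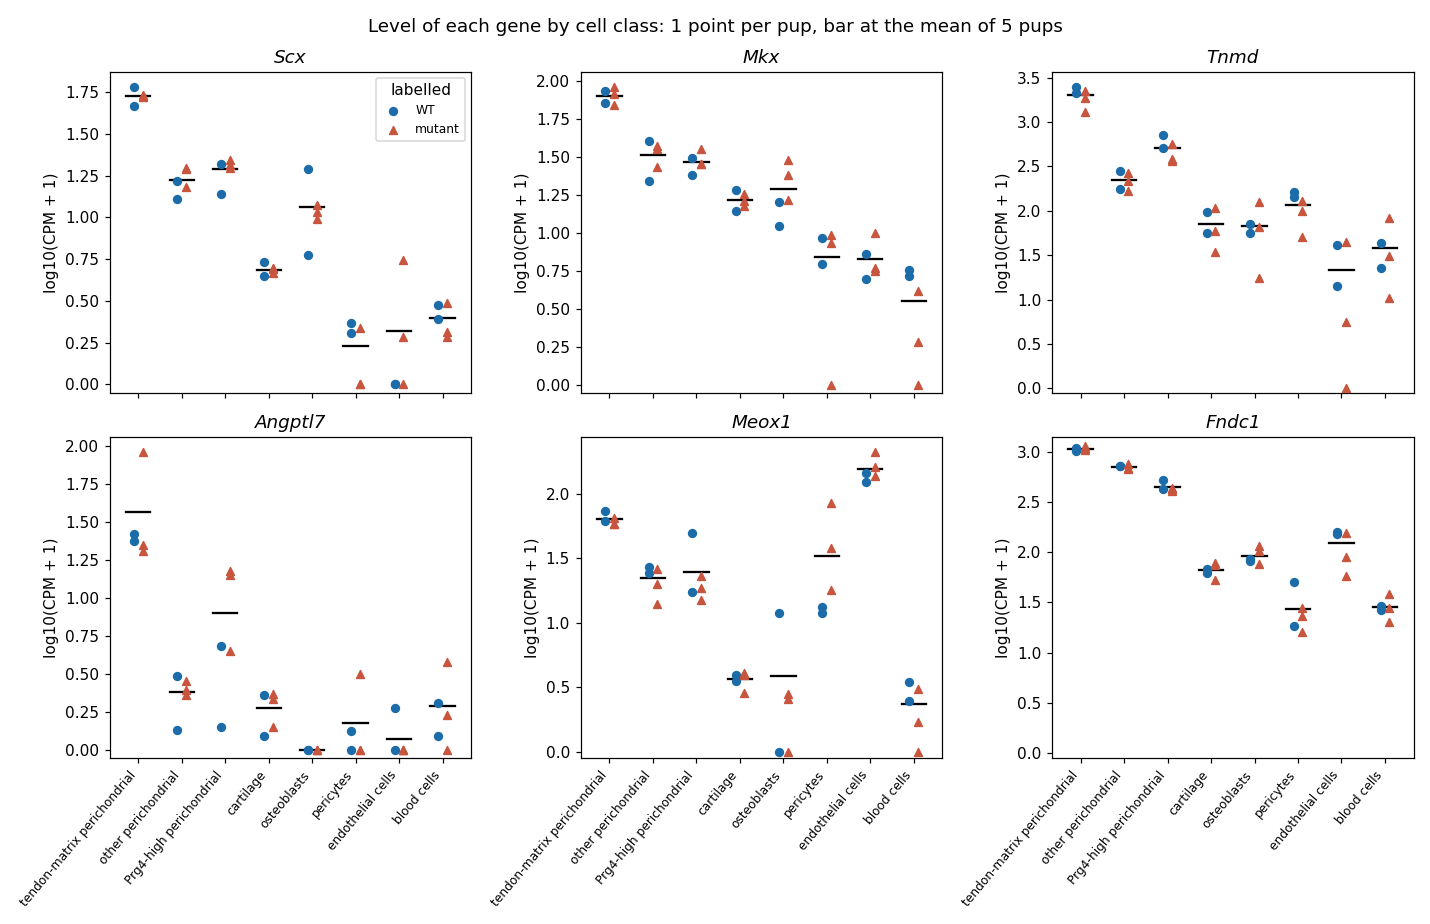
Level of each of the 6 genes in 8 cell classes, as log10(CPM + 1) on the vertical axis, with 1 point per pup (circles labelled WT, triangles labelled mutant) and a bar at the mean of the 5 points. Tendon-matrix perichondrial cells sit highest for Scx, Mkx, Tnmd, Angptl7 and Fndc1, and endothelial cells sit highest for Meox1.

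Scx was highest in tendon-matrix perichondrial cells, at 52.3 ± 5.09 CPM (SD, n = 5). The 5 pups gave 45.3, 59.5, 52.2, 53.2 and 51.2 CPM there and 15.4, 11.8, 14.2, 18.7 and 18.6 CPM in other perichondrial cells. The lowest pup in the first class was above the highest in the second. Prg4-high perichondrial cells, whose Prg4 encodes lubricin of joint surfaces, had 18.4 ± 3.24 CPM of Scx, which overlapped with the other perichondrial cells. Osteoblasts followed at 10.6 ± 4.90 CPM from 58 UMIs, and overlapped with both. Cartilage had 3.87 ± 0.358 CPM, in a narrow range of 3.48 to 4.41. Blood cells had 1.504 ± 0.524 CPM, from 21 UMIs in all, and pericytes and endothelial cells had 7 and 3 UMIs, so these 3 classes were not ordered.

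Among the named classes, Mkx was again highest in tendon-matrix perichondrial cells, with a larger part of its transcripts in cartilage than Scx or Tnmd had. Tendon-matrix perichondrial cells had 85.0, 71.1, 68.8, 91.0 and 81.5 CPM in pups 1 to 5, a mean of 79.5 ± 9.36. Other perichondrial cells had 39.6, 20.96, 26.4, 34.9 and 36.6 CPM, below every value of the first class, and Prg4-high perichondrial cells had 28.6 ± 4.22 CPM. In cartilage, Mkx was counted at 18.3, 12.997, 15.2, 17.1 and 14.1 CPM, a mean of 15.5 ± 2.15 from 7505 UMIs. Every pup was lower there than in its perichondrial cells. The 45661 cartilage cells, which were 45.0% to 70.7% of the cells of a pup, held 30.0% to 50.7% of its Mkx UMIs (median 37.4%). The medians were 20.7% for Scx and 11.6% for Tnmd. Osteoblasts had 18.7 ± 7.68 CPM of Mkx from 84 UMIs and overlapped with cartilage, and blood cells had 2.60 ± 2.06 CPM, with 0 UMIs in pup 4.

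Tnmd reached 2009 ± 447 CPM in tendon-matrix perichondrial cells. The pups gave 2476, 2143, 1875, 2241 and 1309 CPM, and pup 5 was the lowest. Other perichondrial cells had 276, 173, 217, 267 and 167 CPM, so the classes were far apart in every pup. Between them stood the Prg4-high perichondrial cells at 509 ± 144 CPM of Tnmd. Pericytes, the contractile cells around small vessels, had 116 ± 43.8 CPM (49.5 to 162, 902 UMIs). Cartilage followed at 69.8 ± 30.4 CPM and osteoblasts at 66.3 ± 39.0 CPM, and blood cells had 37.1 ± 27.9 CPM, so that these 4 classes overlapped between pups. The level in cartilage ran from 33.5 CPM in pup 5 to 107 CPM in pup 4, and the level in blood cells from 9.50 CPM in pup 3 to 82.2 CPM in pup 4.

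Cnmd was distributed the other way. Cartilage had 2494 ± 135 CPM of Cnmd, tendon-matrix perichondrial cells 58.3 ± 9.98 and blood cells 54.8 ± 20.9. Relative to cartilage, Cnmd was lower in perichondrial cells by a log2 difference of -5.03 ± 0.07 (SE; adjusted p = 9.4e-11, edgeR's quasi-likelihood test with Benjamini-Hochberg adjustment).

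Angptl7, which encodes a secreted angiopoietin-like protein, was highest, among the named classes, in the tendon-matrix cells. These had 25.5, 22.6, 21.3, 19.5 and 90.4 CPM in pups 1 to 5. Pup 5 stood far above the other 4. Prg4-high perichondrial cells had 7.01 ± 6.19 CPM (0.420 to 14.1), below every tendon-matrix value. Other perichondrial cells had 1.42 ± 0.663 CPM, cartilage 0.897 ± 0.517 CPM and blood cells 0.958 ± 1.10 CPM, 3 means that overlapped. Osteoblasts had 0 Angptl7 UMIs in 5 of 5 pups, where 3 UMIs, the limit that a count of 0 allows (counting error only), would be 1.09 to 14.9 CPM per pup. Angptl1 had 394, 191 and 99.99 CPM and Angptl2 had 623, 433 and 210 CPM in tendon-matrix perichondrial cells, other perichondrial cells and cartilage, whereas Angptl4 had 17.2, 44.2 and 2.00 CPM.

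Meox1, a homeobox gene of somites and their derivatives, was counted at 61.3, 73.4, 64.6, 57.7 and 57.3 CPM in tendon-matrix perichondrial cells, a mean of 62.9 ± 6.62. In endothelial cells the pups gave 124, 144, 160, 138 and 211 CPM, a mean of 155 ± 33.95 from 530 UMIs. Every endothelial value was above every tendon-matrix value. Pericytes had 32.3 ± 30.9 CPM (10.9 to 84.2, 108 UMIs) and other perichondrial cells 21.3 ± 5.34 CPM of Meox1, and these overlapped. Cartilage had 2.66 ± 0.507 CPM, osteoblasts 18 UMIs in all and blood cells 21. Its paralog Meox2 had 184 ± 41.9 CPM in endothelial cells, 261 ± 66.2 in pericytes, 86.0 ± 8.43 in tendon-matrix perichondrial cells and 84.5 ± 14.1 in other perichondrial cells. Tcf15, a relative of Scx, had 8.99 CPM in endothelial cells and at most 0.0602 CPM in cartilage and in either perichondrial class.

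Fndc1, which encodes a fibronectin type III domain protein, was the member spread most evenly over the perichondrial cells. Tendon-matrix perichondrial cells had 1013, 1080, 1089, 1129 and 1035 CPM and other perichondrial cells 726, 720, 679, 751 and 674 CPM. The classes did not overlap, with means of 1069 ± 45.8 and 710 ± 32.6. Prg4-high perichondrial cells had 441 ± 46.8 CPM and endothelial cells 121 ± 45.4 CPM. Schwann cells had 63 UMIs in 73 cells and muscle cells 32 UMIs in 45 cells, too few cells to be placed in this order. Osteoblasts (91.4 ± 16.5) and cartilage (65.8 ± 9.75) had lower means than endothelial cells, but the endothelial values overlapped with both. Osteoblasts and cartilage overlapped narrowly with each other, and blood cells (27.4 ± 6.62) were at the level of pericytes (26.1 ± 13.8).

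How far the genes distinguish fibrous from cartilage cells was tested on sums per pup, with the pup as a block. The members were chosen with earlier results of these data known, so their calls may not be independent of that choice. In perichondrial cells against cartilage, 6 of 6 members were called higher at an adjusted p of 0.05, where 74.1% of 17607 genes tested were called and 36.3% were called higher. The log2 differences were 3.38 ± 0.07 (SE) for Scx, 2.05 ± 0.07 for Mkx, 4.42 ± 0.12 for Tnmd, 4.65 ± 0.34 for Angptl7, 4.23 ± 0.08 for Meox1 and 3.90 ± 0.08 for Fndc1. The median over the 6 was 4.07 and that over all genes tested -0.02. Each gene was higher in 5 of 5 pups, with a ratio between pups of 3.23 to 4.43 for Mkx and of 15.1 to 25.5 for Tnmd.

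In tendon-matrix against other perichondrial cells, Scx, Mkx, Tnmd, Meox1 and Fndc1 were called higher, where 35.1% of 13947 genes were called and 18.1% were called higher. Angptl7 was called higher too (4.74 ± 0.26 on the log2 scale), but had 72 UMIs in other perichondrial cells. These did not pass the filter on low counts in every pup, as this fit required of a class. Angptl7 thus entered through the tendon-matrix cells, where it was high, and its call gives no support. Among the rest, Tnmd had the largest difference, 3.41 ± 0.11. The transcription factors followed at 2.00 ± 0.13 for Scx, 1.75 ± 0.09 for Meox1 and 1.58 ± 0.09 for Mkx, and Fndc1 had the smallest at 0.80 ± 0.03. The largest adjusted p was 2.49e-05, for Scx (edgeR's quasi-likelihood test with Benjamini-Hochberg adjustment). In every pup, perichondrial cells with at least 2 of Kera, Thbs4 and Fmod had more of each member than other perichondrial cells. No member had set the class, but the members were chosen with earlier results of these data known. Without the pup as a block, 2700 rather than 4896 genes were called, and the 6 members kept their calls.

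Lists of tendon matrix genes and of tendon regulators were followed in the same contrasts, leaving out genes that set the classes. Of 36 genes for tendon matrix, 28 were higher and 5 lower in perichondrial cells than in cartilage (median log2 difference 1.97), where 36.3% of all genes tested were higher and 37.9% lower. The leading ones were Aspn (4.98 ± 0.10), Dpt (4.87 ± 0.13) and Kera (4.79 ± 0.17), small matrix proteins that bind collagen, and the largest falls were Loxl4 (-4.35 ± 0.24), Col11a1 (-2.23 ± 0.08) and Comp (-1.90 ± 0.19), the last pair being abundant cartilage proteins. Of 34 tendon regulators, mostly transcription factors and growth factor genes, 24 were higher and 5 lower (median 0.81), beside the same 36.3% and 37.9% of all genes.

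Within the perichondrial cells the lists were divided. In tendon-matrix cells, 21 of 35 matrix genes were higher and 8 lower (median 0.47), and 12 of 35 regulators were higher and 10 lower (median -0.02, as over all genes, -0.01), where 18.1% of all genes tested were higher and 17.0% lower. Ptx4 (4.26 ± 0.22), Cilp (2.10 ± 0.06) and Chodl (1.95 ± 0.21) rose most. Ptx4 had 0.364 CPM in other perichondrial cells and entered this fit through the tendon-matrix cells (6.41 CPM), where it was high. Its call, which is among the 21, gives no support. Mfap5 (-1.92 ± 0.21), Dpt (-1.44 ± 0.08) and Lum (-0.99 ± 0.06) fell, so Dpt, although high in perichondrial cells as a whole, was lower where Scx, Mkx and Tnmd were higher.

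In osteoblasts against perichondrial cells, Mkx, Tnmd and Fndc1 were called lower, where 38.3% of 12618 genes were called and 21.2% were called lower. Scx, Angptl7 and Meox1 were called lower too, but had 58, 0 and 18 UMIs in osteoblasts and did not pass the filter on low counts among osteoblasts alone, so they entered this fit through the perichondrial cells, where they were high, and their calls give no support. The log2 differences were -1.51 ± 0.23 for Scx, -1.55 ± 0.20 for Mkx, -4.41 ± 0.53 for Tnmd, -3.51 ± 0.36 for Meox1 and -3.22 ± 0.16 for Fndc1, and no fitted value is given for Angptl7, which had no UMI in osteoblasts. The call of Angptl7 was lost without the pup as a block (adjusted p = 0.118, edgeR's quasi-likelihood test with Benjamini-Hochberg adjustment). Irx3 and Irx5, homeodomain genes of the same superclass as Mkx, went the other way, with 58.2 and 79.1 CPM in osteoblasts against 3.05 and 0.502 CPM in perichondrial cells. Their relatives Irx1 and Irx2 were near the floor and were not tested, at 0.0725 CPM each in osteoblasts against 0.249 and 0.441 CPM. The pup with fewest osteoblasts had 13.

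The level of the members within cartilage was set against blood cells, which are not known to make tendon proteins, as the background of each library. This comparison was chosen after the data were seen. In cartilage, Tnmd and Fndc1 were called higher than in blood cells, where 64.1% of 17104 genes were called, 37.5% higher and 26.6% lower. Scx and Meox1 were called higher too, but with 21 UMIs each in blood cells they did not pass the filter among blood cells alone, so they entered through cartilage and their calls give no support. Mkx was called higher as well, but had 49 UMIs in blood cells and 0 in those of pup 4. This fit required every pup of a class to pass the filter, so Mkx also entered through cartilage, and its call gives no support. The median over all genes tested was 0.29 on the log2 scale. The ratio of mean CPM, without TMM scaling, was 5.97 for Mkx, 2.40 for Fndc1 and 2.57 for Scx. It was 1.88 for Tnmd and 1.97 for Meox1, and for both of these the pups overlapped. The fitted log2 differences were 1.76 ± 0.33 for Scx, 2.66 ± 0.34 for Mkx, 1.53 ± 0.27 for Tnmd, 1.32 ± 0.43 for Meox1 and 1.71 ± 0.16 for Fndc1. Angptl7 was not called (0.36 ± 0.54, adjusted p = 0.578, edgeR's quasi-likelihood test with Benjamini-Hochberg adjustment) and has no stated direction, since its mean CPM in cartilage was 0.936 times that in blood cells and the fitted value was -0.24 with stricter class thresholds and -0.10 without the 5% of cells with most UMIs. The call of Meox1 was lost with stricter class thresholds (0.34, adjusted p = 0.474) and without pup 3 (1.09, adjusted p = 0.0761).

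The ratio of one gene's UMIs to another's was also compared between classes. Mkx had 0.0376 UMIs per Tnmd UMI in tendon-matrix perichondrial cells, 0.222 in cartilage (0.160 to 0.421 between pups) and 0.114 in blood cells (0 to 0.333, from 49 Mkx UMIs), so cartilage and blood cells overlapped. Scx had 0.0248 per Tnmd UMI in tendon-matrix perichondrial cells, 0.0552 in cartilage and 0.0491 in blood cells. The Mkx ratio in cartilage was above that in the tendon-matrix cells in 5 of 5 pups, and how much of the Tnmd in cartilage was free RNA was not tested.

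Within cartilage, Prg4-high cells were set against cells with no high level of Prg4, Ucma, Col10a1 or Ihh. Scx had 5.33 and 4.05 CPM (log2 difference 0.48 ± 0.11), Mkx 19.3 and 14.2 CPM (0.52 ± 0.09) and Fndc1 91.9 and 70.0 CPM (0.47 ± 0.09), and these 3 of 6 members were called higher, where 66.9% of 14473 genes were called and 32.7% were called higher. Tnmd (-0.13 ± 0.06), Angptl7 (0.54 ± 0.24) and Meox1 (0.23 ± 0.14) were not called. After thinning, Mkx was found in a smaller share of Prg4-high than of other cartilage cells in pups 1, 4 and 5. There the shares were 4.80% and 6.51%, 5.47% and 5.78%, and 4.21% and 4.24%. In pups 2 and 3 the share was larger (5.26% and 3.97%, 6.15% and 4.75%). For Scx it was smaller in pups 4 and 5 and larger in pups 1 to 3. Median depth was 5040 to 8016 UMIs in Prg4-high and 9211 to 15678 in other cartilage cells. The small differences in level depended on the thresholds. With stricter ones 6 of 6 were called higher, Tnmd among them (0.33), where 31.4% of all genes were called higher. Without the 5% of cells with most UMIs the calls of Scx (0.29) and Fndc1 (0.26) were lost and Tnmd was called lower (-0.65). In that setting 31.8% of all genes were called higher and 33.4% lower. Col10a1-high cartilage, whose Col10a1 marks hypertrophic cells, had 1.68 ± 0.754 CPM of Scx and 8.11 ± 2.30 CPM of Mkx.

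**Figure D2:**
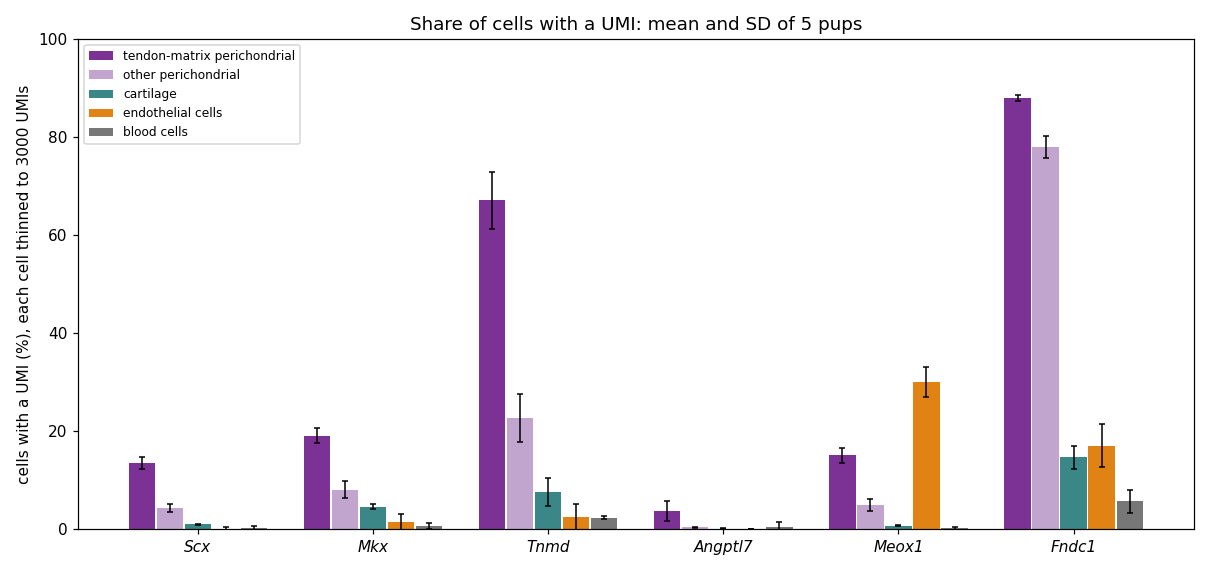
Share of cells with at least 1 UMI of each gene, in percent, in 5 cell classes, as the mean of 5 pups (bars) with its SD (lines). Cells were thinned to 3000 UMIs, and cells with fewer UMIs were left out. In tendon-matrix perichondrial cells the means run from 3.80% for Angptl7 to 87.9% for Fndc1, and in blood cells from 0.231% for Meox1 to 5.72% for Fndc1.

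At a fixed depth of 3000 UMIs, Tnmd was found in 67.1% ± 5.84 of tendon-matrix perichondrial cells, 22.7% ± 4.87 of other perichondrial cells, 7.56% ± 2.88 of cartilage cells and 2.41% ± 0.235 of blood cells. Before thinning, the median cell of these classes held 5441 to 7983, 4742 to 7043, 6818 to 10891 and 5256 to 6843 UMIs in the 5 pups. Cartilage was above blood cells in every pup, with 4.55% as its lowest and 2.75% as the highest share in blood cells. Pericytes stood out for Tnmd alone among the first 3 genes, with a Tnmd UMI in 20.99% ± 6.54 of cells (12.5% to 28.7%), against 0.151% for Scx and 1.48% for Mkx.

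Scx was found in 13.5% ± 1.14 of tendon-matrix perichondrial cells, 4.38% ± 0.840 of other perichondrial cells, 1.04% ± 0.115 of cartilage cells and 0.286% ± 0.324 of blood cells. For Mkx the shares were 19.1% ± 1.55, 8.10% ± 1.71, 4.65% ± 0.430 and 0.700% ± 0.692, and the lowest cartilage pup (4.16%) was above the highest blood value (1.57%). Meox1 was found in 15.1% ± 1.54 of tendon-matrix perichondrial cells and 30.0% ± 3.10 of endothelial cells, against 0.7101% ± 0.117 of cartilage cells and 0.231% ± 0.348 of blood cells. Fndc1 was found in 87.9% ± 0.658 and 77.9% ± 2.17 of the perichondrial classes, 14.7% ± 2.33 of cartilage cells and 5.72% ± 2.28 of blood cells. Angptl7 was found in 3.80% ± 2.08 of tendon-matrix perichondrial cells, and its share in cartilage, 0.173%, was not above that in blood cells, 0.541% from 5 cells.

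Of the 3 core tendon genes, none was found in 19.7% to 31.8% of tendon-matrix perichondrial cells of a pup at this depth, and Scx, Mkx and Tnmd were found together in 2.19% to 3.58%. Whether the genes fell in the same cells was described by the odds ratio of detection within a class, per pup. In tendon-matrix perichondrial cells the median odds ratio was 1.504 for Scx with Mkx (1.16 to 1.84), 1.80 for Scx with Tnmd (1.56 to 2.19) and 2.20 for Mkx with Tnmd (2.13 to 2.44). Tnmd with Angptl7 had the highest median, 2.80. In other perichondrial cells the medians were 1.90 for Scx with Mkx (0.916 to 2.51, from 45 cells with both, and 0.610 at 1500 UMIs, on the other side of 1), 2.24 for Scx with Tnmd (1.04 to 4.82) and 1.76 for Mkx with Tnmd (1.39 to 2.60), which overlapped those of tendon-matrix cells. Of the 15 pairs of members in tendon-matrix cells, 12 were above 1 in 5 of 5 pups, and the others were Scx with Fndc1 (lowest pup 0.980), Mkx with Meox1 (0.928) and Angptl7 with Meox1 (0.524). These are descriptions, since cells of 1 pup share their source. No share of other gene pairs above 1 is given beside them, so the count is not particular to these genes.

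**Figure D3:**
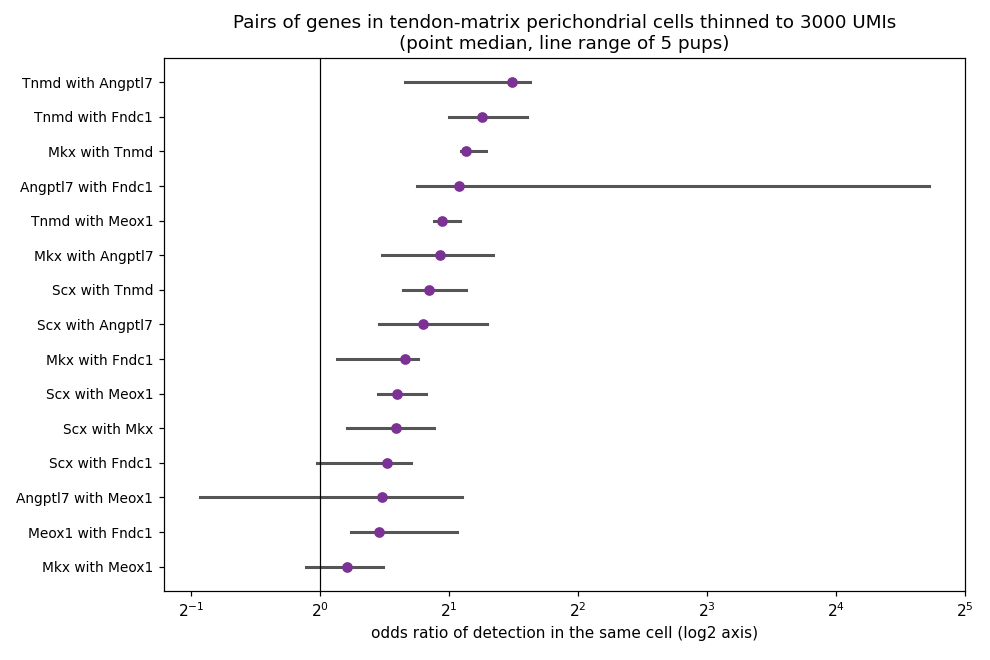
Odds ratio of finding both genes of a pair in the same cell (log2 axis, line at 1), in tendon-matrix perichondrial cells thinned to 3000 UMIs, with the median of 5 pups as a point and their range as a line. The ranges of 12 of the 15 pairs lie above 1, and Angptl7 with Meox1 has its lowest pup at 0.524.

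The cells of this class in which Tnmd was found differed in other genes from those in which it was not. Kera, a proteoglycan that helped to set the class, was at 792 CPM with Tnmd and 140 CPM without it. The complement-related C1qtnf3 (901 and 218 CPM), the elastic fibre gene Mfap4 (2013 and 582 CPM), Enpp2 (230 and 74.5 CPM), which encodes autotaxin, Prss35 (114 and 36.0 CPM) and the mechanosensitive channel Piezo2 (90.7 and 31.4 CPM) were also higher with Tnmd. Cd34, a surface protein of vessel-associated and stromal cells, was lower with Tnmd (39.3 and 181 CPM), as were Clec3b, Ecm1, Anxa8, Col5a3 and the hyaluronan synthase Has1 (24.4 and 98.7 CPM). Median depth was 5794 to 8189 UMIs with Tnmd and 5205 to 7532 without it, and the part of depth in these differences was not tested.

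With Mkx, the same Kera (912 and 511 CPM), Mfap4 and Prss35 were higher, together with Tnmd itself (2853 and 1809 CPM), and Dpt (42.4 and 108 CPM) and Cd34 were lower. With Scx the differences were smaller, except for the hemoglobin gene Hba-a1 of red blood cells, which had 32.6 CPM with Scx and 87.5 CPM without it (median log2 ratio -1.96, -2.65 to -0.49 between pups). The part of blood cell RNA in that difference was not tested. Angptl7 (65.9 and 31.8 CPM) was among the genes higher with Scx, and Dlk1, a signalling protein of progenitor cells (452 and 809 CPM), among the lower. With Angptl7, the transcription factor Pax9 (60.4 and 19.7 CPM) and Chrdl1, a BMP antagonist (45.4 and 16.6 CPM), were higher and Dpt lower (13.1 and 98.5 CPM). With Meox1, Chodl (70.5 and 24.7 CPM) was higher and the cell division genes Ube2c (23.6 and 89.4 CPM) and Mki67 (44.2 and 106 CPM) were lower. The rule for these genes was set after the data were seen.

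**Figure D4:**
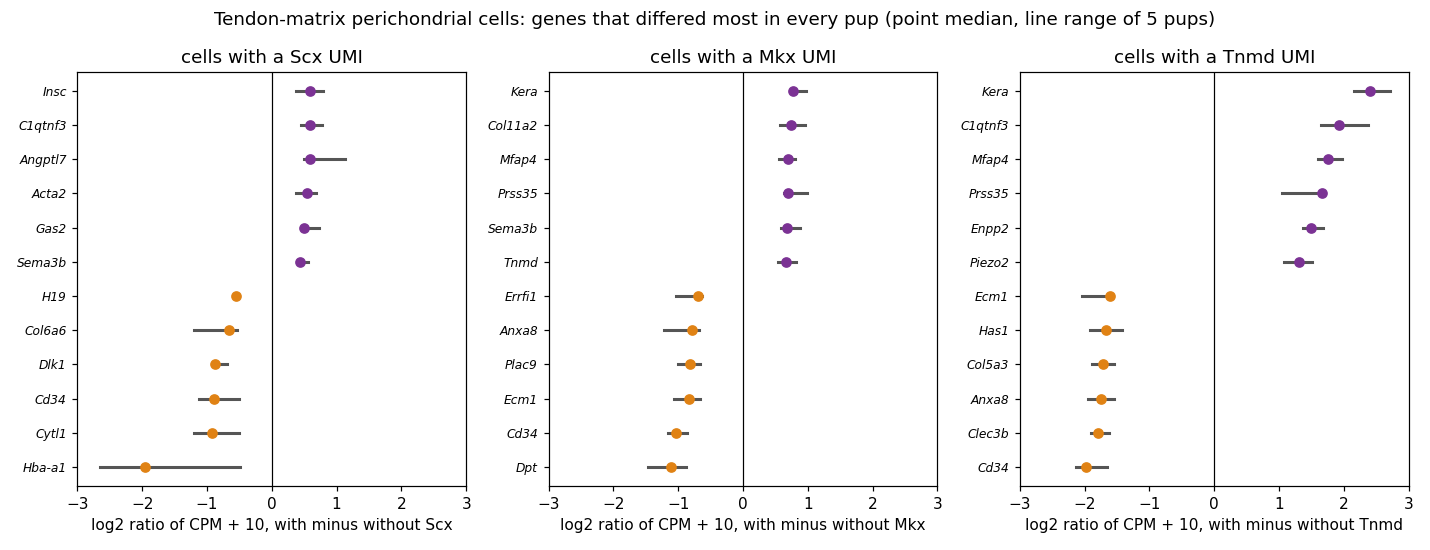
Genes that differed most in every pup between tendon-matrix perichondrial cells with and without a UMI of Scx, Mkx or Tnmd, as the log2 ratio of CPM + 10 on the horizontal axis, with the median of 5 pups as a point and their range as a line. The median ratio reaches 2.41 for Kera with Tnmd and -1.98 for Cd34 with Tnmd, and the ratios with Scx are smaller apart from the hemoglobin gene Hba-a1 (-1.96).

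Over 55 sums of 11 classes in 5 pups, which share library and depth within a pup, the genes whose log2(CPM + 10) was most like that of Scx were Sema3b (Pearson r = 0.93), Mkx (0.93) and Ssc5d (0.92). Those most like Mkx were Creb3l1 (0.91), 4933400C23Rik (0.91) and Chrd (0.91), and those most like Tnmd were Thbs4 (0.91), Sema3b (0.89) and Postn (0.89). Angptl7 was most like Kera (0.80), Thbs4 (0.78) and Sema3b (0.78), and Fndc1 most like Ptn (0.96), Col1a1 (0.93) and Serpinf1 (0.93). Postn, Kera, Thbs4 and Col1a1 were used to set the classes. Meox1 was most like Jcad (0.93), ENSMUSG00000121513 (0.92) and Cdh13 (0.91), and its r with the other 5 members was 0.26 to 0.55, whereas those 5 had 0.64 to 0.93 with one another.

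A fit of endothelial against blood cells was chosen after Meox1 had been seen to be high in endothelial cells, so its Meox1 value restates the levels above and is not given. Fndc1 was higher in endothelial cells (2.12 ± 0.22 on the log2 scale), where 48.2% of 9163 genes were called, 22.3% higher and 25.8% lower. Tnmd was not called (-0.66 ± 0.42, adjusted p = 0.227, edgeR's quasi-likelihood test with Benjamini-Hochberg adjustment), but ran from -1.40 without pup 2 to -0.26 without pup 1 and was called lower without pup 2 and without filterByExpr, the filter on low counts. Scx, Mkx and Angptl7 did not pass the filter.

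The genotype comparison asks whether the Trpv4 allele, recombined in cells with a Col2a1 history, went with a change of these genes. Tnmd in perichondrial cells was at 1945 and 1248 CPM with the WT label and at 1108, 1617 and 854 CPM with the mutant label. The labels overlapped, and the lowest value was that of pup 5. Meox1 was at 52.9 and 50.9 CPM with the WT label and at 45.9, 45.2 and 39.5 CPM with the mutant label. In tendon-matrix cells alone its labels overlapped, at 61.3 and 73.4 CPM (WT) and 64.6, 57.7 and 57.3 CPM (mutant). The log2 difference of Meox1 in all perichondrial cells was -0.16 ± 0.11, with an adjusted p of 0.809 (edgeR's quasi-likelihood test with Benjamini-Hochberg adjustment). In perichondrial cells, 0 of 6 members were called, where 0.0% of 15850 genes were called and 953 had an unadjusted p under 0.05; DESeq2 called 43 genes. The log2 differences of the other members were 0.11 ± 0.13 for Scx, 0.11 ± 0.30 for Mkx, -0.33 ± 0.37 for Tnmd, 0.80 ± 0.85 for Angptl7 and 0.10 ± 0.13 for Fndc1. The sign turned when 1 pup was left out for Mkx (-0.19 to 0.52, without pup 2 or 4), Tnmd (-0.66 to 0.095, without pup 1) and Angptl7 (-0.20 to 1.24, without pup 5).

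**Figure D5:**
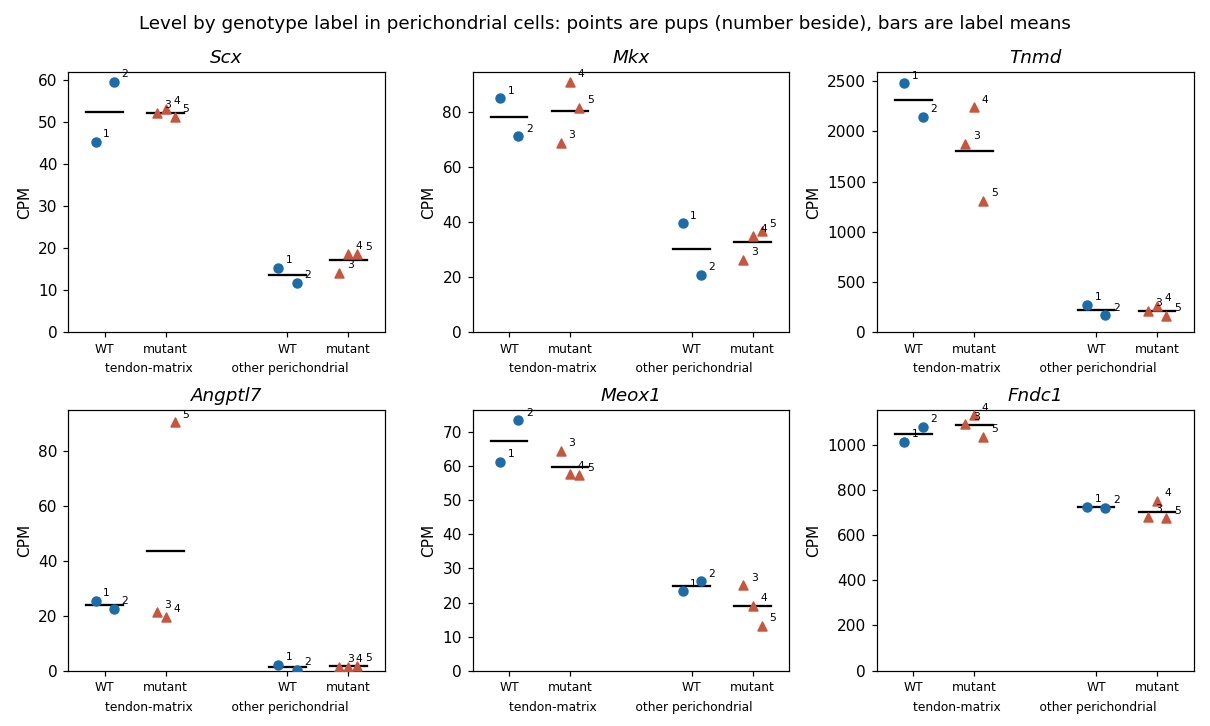
Level of each gene in CPM in tendon-matrix and other perichondrial cells, with 1 numbered point per pup under its genotype label and a bar at the mean of each label. The labels overlap in tendon-matrix cells for Scx, Mkx and Tnmd, and the Angptl7 level of pup 5 (90.4 CPM) lies apart from the other 4 pups.

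In tendon-matrix perichondrial cells, a comparison added after the data were seen, the label means were 52.4 CPM (WT) and 52.2 CPM (mutant) for Scx, 78.1 and 80.4 CPM for Mkx, and 2310 and 1808 CPM for Tnmd. The log2 differences, mutant minus WT, were 0.10 ± 0.12 for Scx, 0.15 ± 0.17 for Mkx, -0.25 ± 0.24 for Tnmd, 0.91 ± 0.92 for Angptl7, -0.07 ± 0.10 for Meox1 and 0.15 ± 0.10 for Fndc1. No member was called (0 of 6), where 0.0% of 14542 genes were called, 893 had an unadjusted p under 0.05 and DESeq2 called 20. Angptl7 rested on pup 5, and without that pup its difference was -0.14. Without pups 3 and 4, which alone had Xist in most cells, Tnmd was at -0.72 and Angptl7 at 2.01. These are values of pup 5 against pups 1 and 2, and no p is given for an arm of 1 pup. The tendon-matrix class was set by finding its markers in unthinned cells. Median depth in the class was 7983 and 7515 UMIs with the WT label and 6339, 5440.5 and 5785 UMIs with the mutant label. The part of depth in the label comparison was not tested.

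The share of cells with a UMI was compared between labels in the same way. Tnmd was found in 66.9% of tendon-matrix cells with the WT label and 67.2% with the mutant label (exact permutation p = 1.0), Scx in 13.5% and 13.5% (p = 1.0) and Mkx in 18.5% and 19.5% (p = 0.6), in exact permutation tests over 10 groupings in which the smaller tail is doubled, so that the smallest possible p is 0.2. Meox1 was found in 12.2% of all perichondrial cells with the WT label and 10.3% with the mutant label, at that smallest p of 0.2. In cartilage this smallest p was also reached by Scx (1.15% and 0.973%) and by Meox1 (0.619% and 0.771%), in opposite directions. The Meox1 level in cartilage did not follow its share, with 2.73 CPM (WT) and 2.61 CPM (mutant). The Scx level there overlapped between labels, at 3.48 and 4.41 CPM (WT) and 3.95, 3.62 and 3.90 CPM (mutant). The share of all genes that reach this smallest p is not given here, so reaching it is no result about these genes.

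In cartilage, the tissue in which Col2a1-Cre acts, 0 of 6 members were called between labels, where 0.00523% of 19112 genes (1 gene, the hemoglobin gene Hbb-bt) were called, 1106 had an unadjusted p under 0.05 and DESeq2 called 38. Mean levels with the WT and mutant labels were 3.95 and 3.82 CPM for Scx, 15.6 and 15.5 CPM for Mkx, and 75.1 and 66.3 CPM for Tnmd. In osteoblasts, 0 of the 3 members tested were called (0.0% of 6468 genes, 172 with an unadjusted p under 0.05, 1 by DESeq2), and in blood cells 0 of 3 (0.0% of 11579 genes, 505 and 0). The label effect was also compared between perichondrial cells and cartilage, with 0 of 6 members called (0.0% of 19030 genes, 586 with an unadjusted p under 0.05, 16 by DESeq2). Of the tendon matrix and regulator lists, 0 genes were called between labels in these classes.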

How the data were processed

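From 5 littermate pups, each with its own library from BD Rhapsody HT Express capture, the authors made UMI counts per gene and cell, with a pipeline whose version is not given in the sources used here. The deposited counts are not normalized, and the submitters' processing notes name the genome build mm10. Whether counting used the strand is not stated.

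The filters on cells are those of the study's methods. Cells were classed by marker thresholds in CPM of the cell's UMIs, cells of more than 1 class (995) were left out in place of a doublet caller, and 6199 cells and 1165 Col1a1-high Col3a1-low cells stayed without a class. The members and lists were chosen with earlier results of these data known, and 3 of 12 comparisons were added after the data were seen. All 6 members are named, with their paralogs, genes that overlap them, the 3 genes with the largest rise and fall of the lists in both perichondrial contrasts, and the 3 most like each member. Genes set against cells with and without a member needed at least 10 CPM and the same direction in 5 of 5 pups. For likeness, classes needed at least 20 cells in every pup.

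UMI counts were summed per class and pup (117746735 to 183322632 UMIs per file) and tested with edgeR 4.0.16 in R 4.3.3 (TMM scaling, the filterByExpr filter on low counts, a robust quasi-likelihood fit and Benjamini-Hochberg adjusted p over all genes tested, threshold 0.05). Class contrasts had the pup as a block, since both classes of a pup came from 1 animal and library, and label contrasts had no covariate. The pups were littermates in separate libraries. P-values of label contrasts measure the spread between pups. Those of class contrasts measure how far the difference between classes varied from pup to pup. Standard errors belong to log2 fold changes, and CPM levels are without TMM. Intervals and limits cover counting error only. The fits were tested on simulated data. DESeq2 1.42.0, no filterByExpr, a mitochondrial limit of 20%, stricter thresholds, thinning to 1500 or 5000 UMIs, leaving out the 5% of cells with most UMIs, each pup in turn or the pup block were alternatives, and omitting the Col3a1 limit or pups 3 and 4 was added after the data were seen. Other values came from scipy 1.17.1, pandas 2.3.3 and numpy 2.4.6 under Python 3.11.15.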

Additional observations from a re-analysis of the deposited data

Results flagged for a closer look

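Angptl7 in pup 5 lay apart from the other pups. Its level of 90.4 CPM in tendon-matrix perichondrial cells was above 25.5 CPM, the next highest pup, and the gap made up 0.917 of the range of the 5 pups, against 0.71 for Dixon's 95% critical value. In all perichondrial cells the level of pup 5 was 54.8 CPM (gap 0.822 of the range). Chance passes the critical value in about 1 in 20 groups of samples, and these were the gaps that passed it among tests of the 6 members in several classes. The ratio of pup 5 to the highest other pup, 3.45 on the CPM + 1 scale, ranked 1 of 7590 genes with at least 10 CPM in these cells, and the next gene, Irf9, had 1.66, whereas Tnmd ranked 7489 (0.529). The result rests on 886 UMIs in 1561 cells, and what sets pup 5 apart was not tested.

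A group of 1165 cells was high in Col1a1 but under the Col3a1 limit of perichondrial cells, so the comparisons left it out. Mean levels there were 50.5 CPM for Scx, 113 CPM for Mkx and 2092 CPM for Tnmd, above those of blood cells. Relative to tendon-matrix perichondrial cells these were 0.966, 1.42 and 1.04 times as high, with 2, 4 and 3 of 5 pups higher, and Angptl7 was 1.33 times as high (153 CPM in pup 5, 2 of 5 pups higher). The pups gave 53.1, 41.9, 37.3, 81.6 and 38.8 CPM of Scx, 142, 81.2, 53.5, 194 and 95.0 CPM of Mkx and 2753, 2258, 736, 3453 and 1258 CPM of Tnmd. Pup 4, which held 612 of the cells, was the highest for each of the 3 genes. Meox1 (33.1 CPM) was lower there than in the tendon-matrix perichondrial cells in 5 of 5 pups.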

How the results depend on the processing

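In perichondrial cells against cartilage and in tendon-matrix against other perichondrial cells, all 72 values of members (6 genes in 12 settings) kept their direction and call, and in osteoblasts against perichondrial cells 65 of 66 did. No paired analysis was possible because the pups labelled WT and mutant share no replicate numbers. Without the pup block, in place of which no pairing was used, tendon-matrix against other perichondrial cells gave 2700 called genes (DESeq2 3247), and Angptl7, with 0 UMIs in osteoblasts, was no longer called there. Leaving out 1 pup at a time gave 0 to 24 called genes between labels in cartilage, 0 to 19 in perichondrial cells, 0 to 11 in tendon-matrix cells, 0 to 7 in osteoblasts, 0 to 1804 in blood cells (1804 without pup 2) and 0 to 2 for the difference of effects, with 0 members called each time. In tendon-matrix cells it gave log2 differences of -0.067 to 0.28 for Scx, -0.14 to 1.27 for Angptl7 and -0.17 to 0.039 for Meox1, and in perichondrial cells -0.19 to 0.52 for Mkx, -0.66 to 0.095 for Tnmd and -0.20 to 1.24 for Angptl7. Called genes between labels were 38 (cartilage), 43 (perichondrial), 20 (tendon-matrix), 1 (osteoblasts) and 16 (difference) by DESeq2, and 2, 47, 87, 14 and 9 without filterByExpr (blood cells 181). Without the 5% of cells with most UMIs they were 2 in cartilage and 2 in tendon-matrix cells, and cartilage had 0 with a mitochondrial limit of 20%, with stricter thresholds and without pups 3 and 4 (pup 5 then being the only mutant, with the spread taken from the WT pups). In Prg4-high against other cartilage, stricter thresholds gave 6 called members and Tnmd at 0.33 (64.9% of all genes called, 31.4% higher). Leaving out the deepest cells gave Meox1 at -0.13, and leaving out 1 pup gave 3 to 5 called members (62.4% to 64.2% of all genes). Without pup 1, 4 members were called higher and Tnmd was called lower, where 30.9% of all genes were called higher and 32.3% lower. In cartilage against blood cells Angptl7 was at -0.24 with stricter thresholds and -0.10 without the deepest cells. In endothelial against blood cells Tnmd was called lower without filterByExpr (-0.72) and without pup 2 (-1.40). Thinned to 1500 and 5000 UMIs, the share in tendon-matrix minus other perichondrial cells was 5.30 and 14.0 percentage points for Scx, 6.43 and 15.5 for Mkx, 5.81 and 13.7 for Meox1 and 13.7 and 7.50 for Fndc1, and 41.1 for Tnmd at 5000. Cartilage minus blood cells gave 1.96 and 5.98 points for Mkx and 5.62 and 12.3 for Fndc1, and for Angptl7 -0.51 to 0.063 with 1 pup left out. In other perichondrial cells the odds ratio of Scx with Mkx was 1.90 at 3000 UMIs, 0.610 at 1500 UMIs and 1.28 without the deepest cells, and that of Mkx with Tnmd in tendon-matrix cells was 2.39 without the Col3a1 limit. Other causes were not tested. Counts of 58, 3 and 21 UMIs of Scx and 0, 1 and 11 of Angptl7 limited their levels in osteoblasts, endothelial cells and blood cells.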
